A study of Mus musculus with 12 samples.

Results

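The genes described here are 9 transcription factors of the T-box and limb identity group, Tbx2, Tbx3, Tbx4, Tbx5, Tbx15, Tbx18, Tbx20, Pitx1 and Shox2, read from 54392 gene rows of an RNA sequencing experiment in mouse fibroblasts. They were chosen by name, after Tbx4 had been seen to be nearly absent from every edited clone while Tbx2, its neighbour on the chromosome, was higher there, so their differences from unedited cells are given as a description with no test. Of the 9 genes, 6 had at least 10 normalized counts in at least 3 of 12 libraries, the filter that left 15073 genes for testing. Tbx5, Tbx20 and Pitx1 did not reach it, and Tbx4 reached it only through the unedited cells.

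The cells were NIH-3T3, an established line of mouse embryonic fibroblasts. Groups KO1, KO2 and KO3 carried the genotypes Crls1KO1, Crls1KO2 and Crls1KO3, and WT cells were Crls1WT, with 3 libraries in each of the 4 groups. The product of Crls1, cardiolipin synthase, makes cardiolipin, a lipid of the inner mitochondrial membrane. Edited cells had received a Cas9 plasmid (pD1311-AD) with a guide RNA to Crls1, and each colony was grown out of 1 GFP-positive sorted cell, so each KO group stands for 1 clone. All groups were kept in high-glucose medium with serum, pyruvate and uridine. The labels do not say whether WT cells were also transfected or sorted, nor whether the libraries of a group came from separate cultures, so p-values measure the spread between these libraries, which may be technical. Libraries were made from total RNA depleted of ribosomal RNA and primed with random hexamers. In bulk RNA of this kind, fewer cells expressing a gene and less RNA per cell cannot be told apart.

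T-box factors share a DNA-binding domain named after the gene Brachyury. In the limb bud, Tbx5 is the forelimb member of the family, Tbx4 the hindlimb member, and Pitx1 is a homeodomain factor that acts upstream of Tbx4 in the hindlimb. Tbx2 and Tbx3 are mainly repressors, known from limb, heart and mammary gland and from the bypass of senescence in cultured fibroblasts. Tbx15 and Tbx18 are close relatives expressed in mesenchyme, Tbx20 is a heart factor, and Shox2 is a homeodomain factor of the proximal limb skeleton and the cardiac pacemaker.

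The upstream sequences of Tbx4, Tbx18 and Shox2 are shown because these 3 genes behaved in different ways: Tbx4 was nearly absent from every clone, Tbx18 differed between all pairs of clones, and Shox2 had close levels everywhere. Each is the 250 bases before the gene's start in RefSeq (GRCm38.p6), written in the direction of transcription. Capitals mark matches, on either strand, to TATAAA (the TATA box) or GGGCGG (the GC box), which reads CCGCCC on the other strand. The Tbx4 window is chr11:85896515-85896764 on the plus strand, that of Tbx18 is chr9:87731261-87731510 on the minus strand, and that of Shox2 is chr3:66981772-66982021 on the minus strand.
Tbx4: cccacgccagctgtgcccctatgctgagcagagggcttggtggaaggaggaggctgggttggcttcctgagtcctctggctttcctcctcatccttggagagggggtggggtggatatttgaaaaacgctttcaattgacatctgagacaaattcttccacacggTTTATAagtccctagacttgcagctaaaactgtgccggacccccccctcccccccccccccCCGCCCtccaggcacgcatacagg
Tbx18: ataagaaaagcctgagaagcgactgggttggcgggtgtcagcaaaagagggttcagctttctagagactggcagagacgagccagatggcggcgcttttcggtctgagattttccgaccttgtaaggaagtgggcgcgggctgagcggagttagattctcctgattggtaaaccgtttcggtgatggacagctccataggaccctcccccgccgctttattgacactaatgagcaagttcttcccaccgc
Shox2: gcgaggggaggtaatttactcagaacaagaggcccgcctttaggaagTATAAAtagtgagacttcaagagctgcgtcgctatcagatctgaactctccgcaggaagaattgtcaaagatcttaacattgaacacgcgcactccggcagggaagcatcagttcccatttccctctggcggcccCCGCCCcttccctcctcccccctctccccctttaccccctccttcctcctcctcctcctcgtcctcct
RefSeq promoter entries were matched for 4 of the 9 genes, these and Tbx20. The motifs searched on both strands were AGGTGTGA, the core T-box site, found in 1.12% of 32851 promoter windows of the same length, TATAAA, found in 12.4%, GGGCGG, found in 32.7%, and CACGTG, the E-box, found in 6.02%. Tbx4 had a reverse-strand TATAAA at position -85 from the start and a reverse-strand GGGCGG at -24. Shox2 had a forward TATAAA at -203 and a reverse GGGCGG at -68, and the Tbx18 window held none of the 4 motifs. Tbx20 had GGGCGG at -219 and -95, and none of the 4 windows held AGGTGTGA or CACGTG. The windows held 6 CpG dinucleotides for Tbx4, 15 for Tbx18, 22 for Tbx20 and 11 for Shox2, against a median of 6 over all windows (quartiles 2 and 16). The RefSeq start of Tbx4 lies 10343 bases downstream of the start that GENCODE gives the gene, so its window covers only 1 of the annotated starts. The starts of the other 3 genes are identical in both annotations.

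Across the 12 libraries, the deposited normalized counts corresponded to 32929242 to 42211807 reads each. The edited gene Crls1 averaged 210 ± 2.67 normalized counts in KO1, 349 ± 21.1 in KO2 and 381 ± 23.9 in KO3, against 815 ± 68.4 in WT (SD, n = 3 each). WT replicate 1 stood apart from WT replicates 2 and 3, with chi-square statistics over genes, divided by their degrees of freedom, of 53.3 and 56.5, against 17.5 between replicates 2 and 3 and 4.68 to 25.7 between replicates of a clone. No pair of libraries agreed within sampling noise. Of 12 fibroblast markers, Lum was at 0 in every library and Dcn fell below the filter, 2 genes that define many fibroblasts, while the summed level of the list was 844993 to 884793 normalized counts in KO1, 926639 to 976014 in KO2, 891090 to 911363 in KO3 and 858230 to 942671 in WT. Most of each sum was Fn1 and Col1a2 together, so it says little of the other markers.

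Tbx4 (ENSMUSG00000000094.12, chr11:85886422-85916097, plus strand, GRCm38) was close to absent from the edited clones. It had 1.07, 0 and 0.984 normalized counts in KO1, 0, 0.958 and 0 in KO2 and 0, 0 and 0 in KO3, against 163, 192 and 167 in WT. In reads, that is 2 in KO1, 1 in KO2 and 0 in KO3 over 3 libraries each, against 509 in WT. WT libraries were all far above every clone library, and no clone library held more than 1 read.
As summed reads divided by summed library size factors, the level in WT was 252 times that in KO1 (95% exact interval 69.5 to 2089) and 566 times that in KO2 (101 to 22414), intervals that cover counting error only. KO3 was at least 177-fold lower than WT, taking 3 reads over the group as the limit that a count of 0 allows. In the authors' deposited table the log2 fold changes of Tbx4 are -7.71 for KO1, -8.72 for KO2 and -10.97 for KO3, values that for so few reads depend on how 0 is handled.

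Tbx2 (ENSMUSG00000000093.6, chr11:85832551-85841948, plus strand) lies beside Tbx4, with starts 53.9 kb apart and 44.5 kb between the genes. The repressor was expressed at a low level, with 23.5, 17.9 and 27.5 normalized counts in KO1, 20.5, 19.2 and 14.9 in KO2 and 40.4, 27.2 and 38.4 in KO3, against 9.41, 10.35 and 9.03 in WT. Every clone library was above every WT library. These values rest on 67 reads in KO1, 59 in KO2 and 106 in KO3, against 28 in WT, summed over 3 libraries. On the scale of log2(normalized count + 1), used for every log2 difference computed here, the difference from WT was 1.16 in KO1, 0.85 in KO2 and 1.76 in KO3 (SE 0.25). The single annotated gene between Tbx2 and Tbx4, Gm11444, was at 0 in all 12 libraries.

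Tbx3 (ENSMUSG00000018604.18, chr5:119670669-119684724, plus strand), the closest relative of Tbx2, was also higher in the clones, most in KO1 and KO2. It had 1264, 1314 and 1176 normalized counts in KO1, 1306, 1253 and 1186 in KO2 and 591, 650.2 and 653 in KO3, against 479, 460 and 479 in WT. KO1 and KO2 overlapped, KO3 lay below both, and all 3 clones lay above WT. The log2 difference from WT was 1.40 in KO1, 1.40 in KO2 and 0.42 in KO3 (SE 0.07). Tbx3os1, an antisense transcript that overlaps 697 bases of Tbx3, had 29.6 to 45.2 normalized counts in KO1, 14.9 to 53.2 in KO2 and 3.11 to 21.9 in KO3, against 1.81 to 11.8 in WT. Tested by limma, with p-values adjusted over all genes tested and a threshold of 0.05, it rose in KO1 (log2 difference 2.65, adjusted p = 0.00703) and in KO2 (2.30, adjusted p = 0.0130), while its difference in KO3 of 0.96 did not pass (adjusted p = 0.269, but 0.0343 without KO3 replicate 1). Its KO2 call was lost without KO2 replicate 1 (adjusted p = 0.0590) or WT replicate 3 (adjusted p = 0.0567). The sources used here do not state whether counting used strand, and reads of overlapping genes on opposite strands cannot be told apart.

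Tbx5 (ENSMUSG00000018263.11, chr5:119832668-119885219, plus strand), the forelimb factor, lies 147.9 kb beyond the end of Tbx3. It had a single read, in KO1 replicate 1, and 0 in the other 11 libraries. Pitx1 (ENSMUSG00000021506.7, chr13:55825051-55836192, minus strand) and Tbx20 (ENSMUSG00000031965.15, chr9:24718138-24774303, minus strand) had 0 reads in all 12 libraries. A count of 0 over 3 libraries allows a mean of up to 1.04 normalized counts in KO1, 0.922 in KO2 and 0.986 in KO3, against 1.03 in WT, counting error only. Tbx5, Tbx20 and Pitx1 were at or under these limits in every group, so no level of them could be measured at this depth.

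Tbx18 (ENSMUSG00000032419.8, chr9:87702800-87731260, minus strand), a factor of mesenchyme around the heart, ureter and somites, was the most abundant of the group in WT and lower in each clone. It had 1231, 1184 and 1158 normalized counts in KO1, 3023, 3149 and 3120 in KO2 and 1484, 1400 and 1367 in KO3, against 8292, 7682 and 8043 in WT. No 2 groups overlapped, and the order was WT, KO2, KO3, KO1 from high to low. The log2 difference from WT was -2.75 in KO1, -1.37 in KO2 and -2.50 in KO3 (SE 0.05).

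Tbx15 (ENSMUSG00000027868.11, chr3:99240381-99354259, plus strand), known for its part in limb and skin mesenchyme, was also lower in the clones but by less. It had 1053, 1105 and 1168 normalized counts in KO1, 1273, 1259 and 1241 in KO2 and 791, 654 and 728 in KO3, against 1738, 1650 and 1643 in WT. The 4 groups did not overlap, with KO2 nearest to WT and KO3 lowest. The log2 difference from WT was -0.60 in KO1, -0.41 in KO2 and -1.21 in KO3 (SE 0.07).

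Shox2 (ENSMUSG00000027833.16, chr3:66971727-66981771, minus strand) showed the smallest differences of the 6 genes. It had 654, 655 and 630 normalized counts in KO1, 685, 630 and 670 in KO2 and 584, 576 and 563 in KO3, against 644, 548 and 514 in WT. The libraries of each clone overlapped those of WT only through WT replicate 1, the highest of WT. Every clone library was above WT replicates 2 and 3. The log2 difference from WT was 0.19 in KO1, 0.22 in KO2 and 0.02 in KO3 (SE 0.08). Without WT replicate 1 these became 0.28 in KO1, 0.32 in KO2 and 0.11 in KO3, and the other 5 genes moved by less than Shox2 did. Tbx4, next after it, then had -7.49 in KO3, against -7.45 with all libraries.

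**Figure D1:**
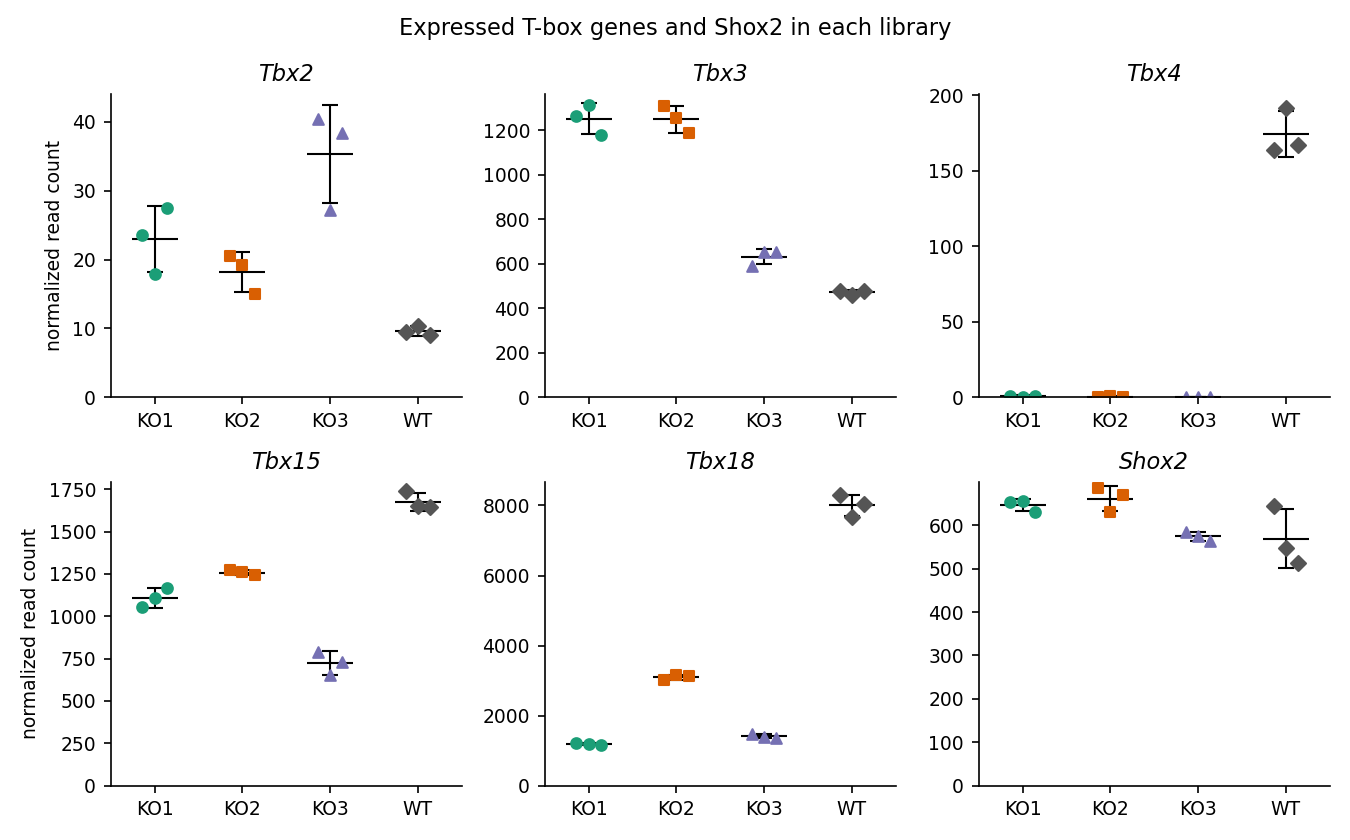
Normalized read counts (vertical axis, from 0, with its own range for each gene) of the 6 expressed T-box and limb identity genes in KO1, KO2, KO3 and WT (horizontal axis). Each point is 1 library and bars give the mean ± SD (n = 3). Tbx4 stands at or near 0 in all clones against 163 to 192 in WT. Tbx2 and Tbx3 are above WT in all clones, Tbx15 and Tbx18 below it, and Shox2 overlaps it only through WT replicate 1.

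Against WT, then, Tbx2 and Tbx3 were above all WT libraries in every clone and Tbx4, Tbx15 and Tbx18 below them. Shox2 overlapped them only through WT replicate 1. Of all 15073 genes tested, the share with every library above WT was 30.7% in KO1, 30.9% in KO2 and 28.7% in KO3, and the share with every library below WT was 28.8% in KO1, 31.5% in KO2 and 29.3% in KO3. The genes were chosen on these comparisons and Tbx4 passed the filter only through WT, so no reading is made of their count.

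Levels of different genes are compared per kilobase of exon, as mean normalized counts per kb. In WT the order was Tbx18 at 1697, Tbx15 at 448, Shox2 at 172, Tbx3 at 71.3, Tbx4 at 51.2 and Tbx2 at 2.65. In KO1, Tbx15 at 296 stood above Tbx18 at 252, followed by Shox2 at 195, Tbx3 at 189 and Tbx2 at 6.35. In KO2, Tbx18 at 656 stood above Tbx15 at 336, Shox2 at 200 and Tbx3 at 188, with Tbx2 at 5.02. In KO3 the order was Tbx18 at 300.3, Tbx15 at 193, Shox2 at 173, Tbx3 at 95.3 and Tbx2 at 9.74. The ranges of mean ± SD overlapped for Shox2 and Tbx3 in KO1 and KO2 and for Tbx15 and Shox2 in KO3, and for no other neighbours in these orders.

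**Figure D2:**
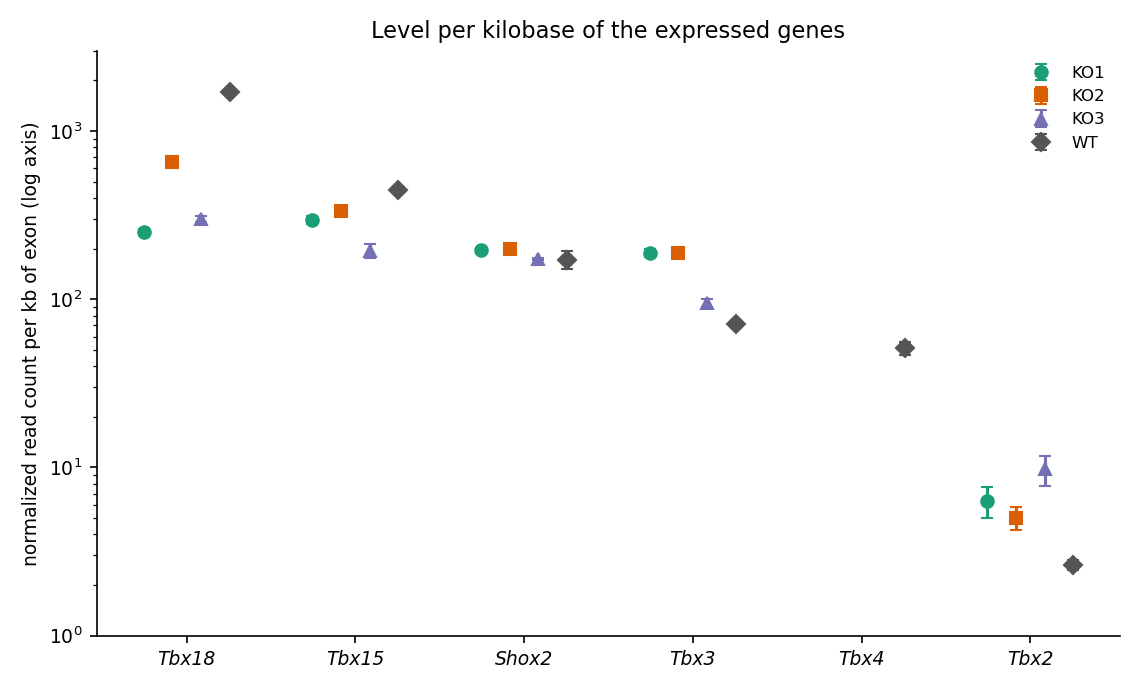
Mean normalized read count per kb of exon (vertical log axis) for the 6 expressed genes (horizontal axis) in KO1, KO2, KO3 and WT, with bars of ± 1 SD (n = 3). Tbx4 in the clones lies under the lower end of the axis. Tbx18 ranges over 252 to 1697 per kb between groups while Shox2 stays at 172 to 200, and in WT Tbx2 is the lowest of the 6.

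The clones also differed from each other, a comparison not used to choose the genes. Each comes from 1 cell, so a difference is between these clones. A gene is called where the limma p-value, adjusted by Benjamini-Hochberg over all 15073 genes, is under 0.05. For KO2 against KO1, 1 of the 6 genes was called, with 44.4% of all tested genes called in that comparison. For KO3 against KO1, 3 of 6 were called, against 43.6% of all genes, and for KO3 against KO2, 4 of 6 were called, against 53.1%. Tbx4 is among the 6 but had too few reads in the clones to be called in any pair, so the shares are not strictly alike. With 6 genes these counts are read as no more than the background, and the statements below are about single genes.

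Tbx18 differed between every pair of clones. It was higher in KO2 than in KO1 by a log2 difference of 1.38 (SE 0.05, adjusted p = 1.53e-09) and higher in KO3 than in KO1 by 0.25 (adjusted p = 0.00163). It was lower in KO3 than in KO2, with a difference of -1.13 (adjusted p = 4.19e-09). Tbx3 was lower in KO3 than in KO1 (-0.99, SE 0.07, adjusted p = 3.07e-07) and than in KO2 (-0.98, adjusted p = 1.72e-07), with fold values of 0.505 and 0.506. Between KO2 and KO1, Tbx3 had a difference of 0.00 with a 95% interval of -0.15 to 0.15. Tbx15 was lower in KO3 than in KO1 (-0.62, SE 0.07, adjusted p = 2.29e-05) and than in KO2 (-0.80, adjusted p = 1.52e-06). Its difference between KO2 and KO1, 0.18, narrowly missed the threshold (adjusted p = 0.0546) and was called in 8 of 21 alternative settings, among them without KO1 replicate 3 (adjusted p = 0.0494), KO3 replicate 1 (0.0371), KO3 replicate 2 (0.0289) or WT replicate 1 (0.0418).

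Tbx2 ran the other way in KO3: it was higher there than in KO2 (0.91, SE 0.25, adjusted p = 0.00851). It was not called between KO3 and KO1 (0.60, adjusted p = 0.0731, called without KO3 replicate 2 at 0.77 and adjusted p = 0.0424, and with quantile normalization at 1.03 and adjusted p = 0.00539) or between KO2 and KO1 (-0.31, 95% interval -0.86 to 0.23). Shox2 was called in no pair by the limma fit of all libraries, with differences of 0.03 for KO2 minus KO1 (95% interval -0.15 to 0.21), -0.17 for KO3 minus KO1 (-0.35 to 0.01) and -0.20 for KO3 minus KO2 (-0.38 to -0.02, adjusted p = 0.0558). For KO3 against KO2, edgeR (adjusted p = 0.0389), DESeq2 (0.0455) and limma on only those groups (0.0321) called it lower in KO3, and the last setting also did so against KO1 (0.0380). Without WT replicate 1 both differences of KO3 were called, at adjusted p = 0.0350 against KO1 and adjusted p = 0.0126 against KO2, and that against KO2 was also called without WT replicate 3 (0.0399). Tbx4, with 3 reads in all clones together, was called in no pair and could not be compared among them at this depth.

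**Figure D3:**
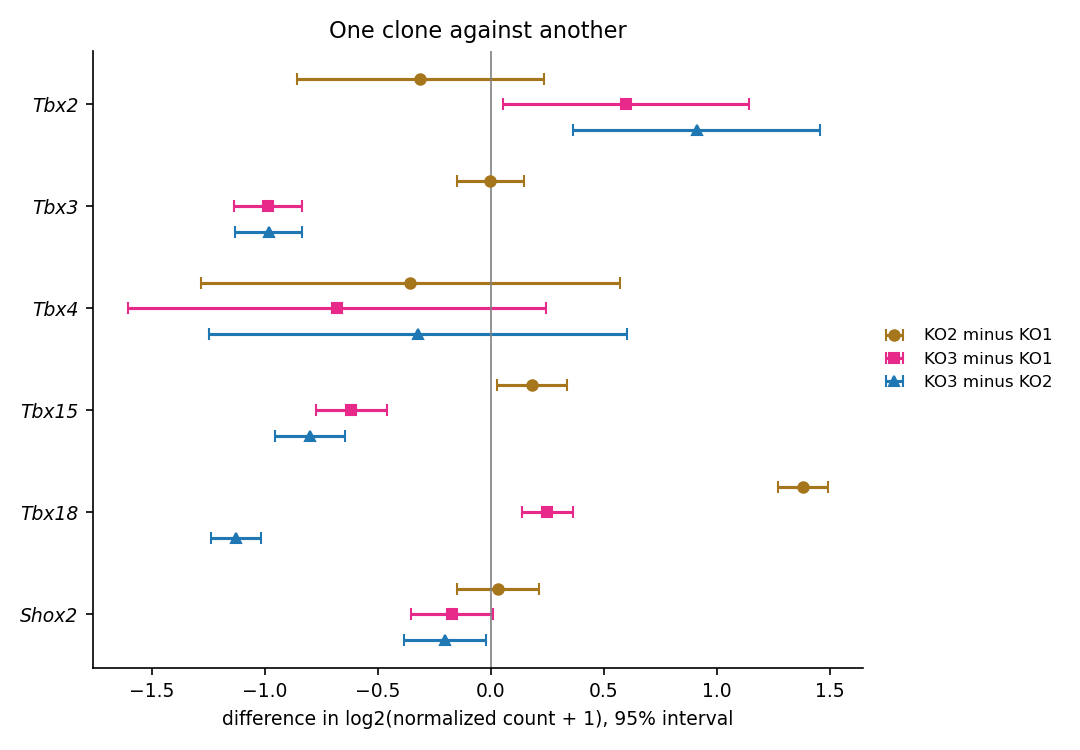
Log2 differences between clones (horizontal axis) for the 6 expressed genes (rows), for KO2 minus KO1, KO3 minus KO1 and KO3 minus KO2, with 95% intervals of the limma model. Tbx18 lies away from 0 in all 3 comparisons, Tbx3 and Tbx15 are lower in KO3 than in either other clone, and the intervals of Tbx4 are wide and span 0.

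Other members of the T-box family gave few measurable genes. Of 10, 2 were at 0 in every library and 3 passed the filter, T, Tbx6 and Mga. In KO1, 2 were called higher and 0 lower, and in KO2 and in KO3 1 was higher and 0 lower, with 52.3%, 60.4% and 54.1% of all genes called in those 3 clones against WT. Tbx6, a factor of paraxial mesoderm, rose in all clones, with 34.8 to 47.1 normalized counts in KO1, 45.0 to 66.2 in KO2 and 40.4 to 56.5 in KO3, against 18.6 to 26.2 in WT. Its log2 differences were 0.82 (adjusted p = 0.00960), 1.11 (adjusted p = 0.00114) and 0.99 (adjusted p = 0.00287) in KO1, KO2 and KO3, and under quantile normalization KO1 no longer passed (0.42, adjusted p = 0.152). T, which encodes Brachyury of the primitive streak and notochord, rose in KO1, with 65.3 to 96.4 normalized counts there, 0 to 9.58 in KO2 and 3.11 to 8.77 in KO3, against 2.35 to 10.8 in WT (KO1 log2 difference 3.81, adjusted p = 9.15e-04). Mga, which carries a T-box and a second DNA-binding domain, differed by -0.12 in KO1, -0.10 in KO2 and -0.19 in KO3 and was not called.

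Of 38 other limb bud patterning genes, 23 passed the filter and 7 were at 0 in every library, among them Shh, the signal of the posterior limb bud, and Hand2. In KO1, 12 rose and 5 fell, in KO2 14 rose and 4 fell, and in KO3 9 rose and 7 fell. Among all 15073 genes, the shares higher and lower were 26.9% and 25.4% in KO1, 29.9% and 30.5% in KO2, and 26.8% and 27.3% in KO3. The list's median log2 difference was 0.23 in KO1, 0.64 in KO2 and 0.016 in KO3, beside 0.018, 0.0040 and 0.0032 over all genes. Without WT replicate 1, a setting chosen after seeing the data, 14 rose and 6 fell in KO1, 16 and 4 in KO2, and 9 and 8 in KO3.
The 9 genes that rose in all clones were Gli1, Meis1, Prrx1, Irx3, Lhx9, Twist2, Fgfr1, Rarb and Rarg. The KO1 call of Lhx9 was close to the threshold (limma adjusted p = 0.0475). Rarb was at a low level, averaging 15.5 normalized counts in KO1, 10.2 in KO2 and 12.4 in KO3, against 2.89 in WT. Rarg, a retinoic acid receptor, rose by a log2 difference of 0.78 in KO1, 1.29 in KO2 and 1.09 in KO3. The 2 that fell in all clones were Fgf10 and Fgfr2, a growth factor of limb mesenchyme and the receptor gene whose epithelial form it binds. Fgf10 had 38.5 to 42.3 normalized counts in KO1, 39.6 to 51.7 in KO2 and 20.2 to 29.8 in KO3, against 424 to 507 in WT, with adjusted p of 1.13e-08, 1.26e-08 and 1.79e-09. In mouse limb buds Fgf10 lies downstream of Tbx5 and Tbx4. Its log2 differences were -3.45 in KO1, -3.34 in KO2 and -4.08 in KO3. Fgfr2 averaged 3488 normalized counts in KO1, 5803 in KO2 and 2244 in KO3, against 8984 in WT.
Called in opposite directions between clones were 2 genes of the list, Cyp26b1 and En1. Cyp26b1, which breaks down retinoic acid in the distal limb, averaged 2167 normalized counts in KO1, 10776 in KO2 and 2241 in KO3, against 4770 in WT. It fell in KO1 (-1.14, adjusted p = 2.18e-09) and KO3 (-1.09, adjusted p = 2.45e-09) and rose in KO2 (1.17, adjusted p = 1.55e-09). En1, of the ventral limb ectoderm and named after its values were seen, rose in KO1 (0.63, lost with quantile normalization) and fell in KO2 (-0.79) and KO3 (-1.49).

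Of 11 further position genes, those that mark forelimb or hindlimb level such as the Hoxc cluster and Isl1, 6 passed the filter. In KO1 2 rose and 1 fell, in KO2 3 rose and 0 fell, and in KO3 1 rose and 3 fell. The shares of all genes that rose or fell are those given for the limb bud list. Their median log2 difference was 0.063 in KO1, 0.50 in KO2 and -0.51 in KO3, beside 0.018, 0.0040 and 0.0032 over all genes. Hoxc5 rose in all clones (0.68 in KO1, 0.60 in KO2 and 0.52 in KO3), with KO3 at adjusted p = 0.0303. That call was lost without KO3 replicate 1 (adjusted p = 0.0972), KO3 replicate 2 (0.0669) or WT replicate 1 (0.0825), and the KO2 call without KO2 replicate 1 (0.0668). Hoxc4 rose in KO1 (0.74) and KO2 (0.47, lost without KO2 replicate 1 at adjusted p = 0.0635) and had 0.35 in KO3 (adjusted p = 0.0571, passing without KO2 replicate 1 or KO3 replicate 1 at 0.0382 and 0.0353). Hoxc6 rose in KO2 (0.52, lost without KO2 replicate 1 at adjusted p = 0.0505 or WT replicate 2 at 0.0517), with 0.30 in KO1 (adjusted p = 0.139, but 0.0404 without KO1 replicate 1) and -0.12 in KO3 (adjusted p = 0.539). Hoxc8, of a more posterior level, fell in KO1, with 5.28 to 6.89 normalized counts against 17.6 to 21.2 in WT, and in KO3 (-2.71), and had -0.55 in KO2 (adjusted p = 0.275). The other 2 that fell in KO3 were the posterior genes Hoxc10 (-1.12) and Hoxc11 (-0.89). Both calls were lost without WT replicate 2 (adjusted p = 0.0682 and 0.0679), and that of Hoxc10 without KO3 replicate 2 (0.0870).

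**Figure D4:**
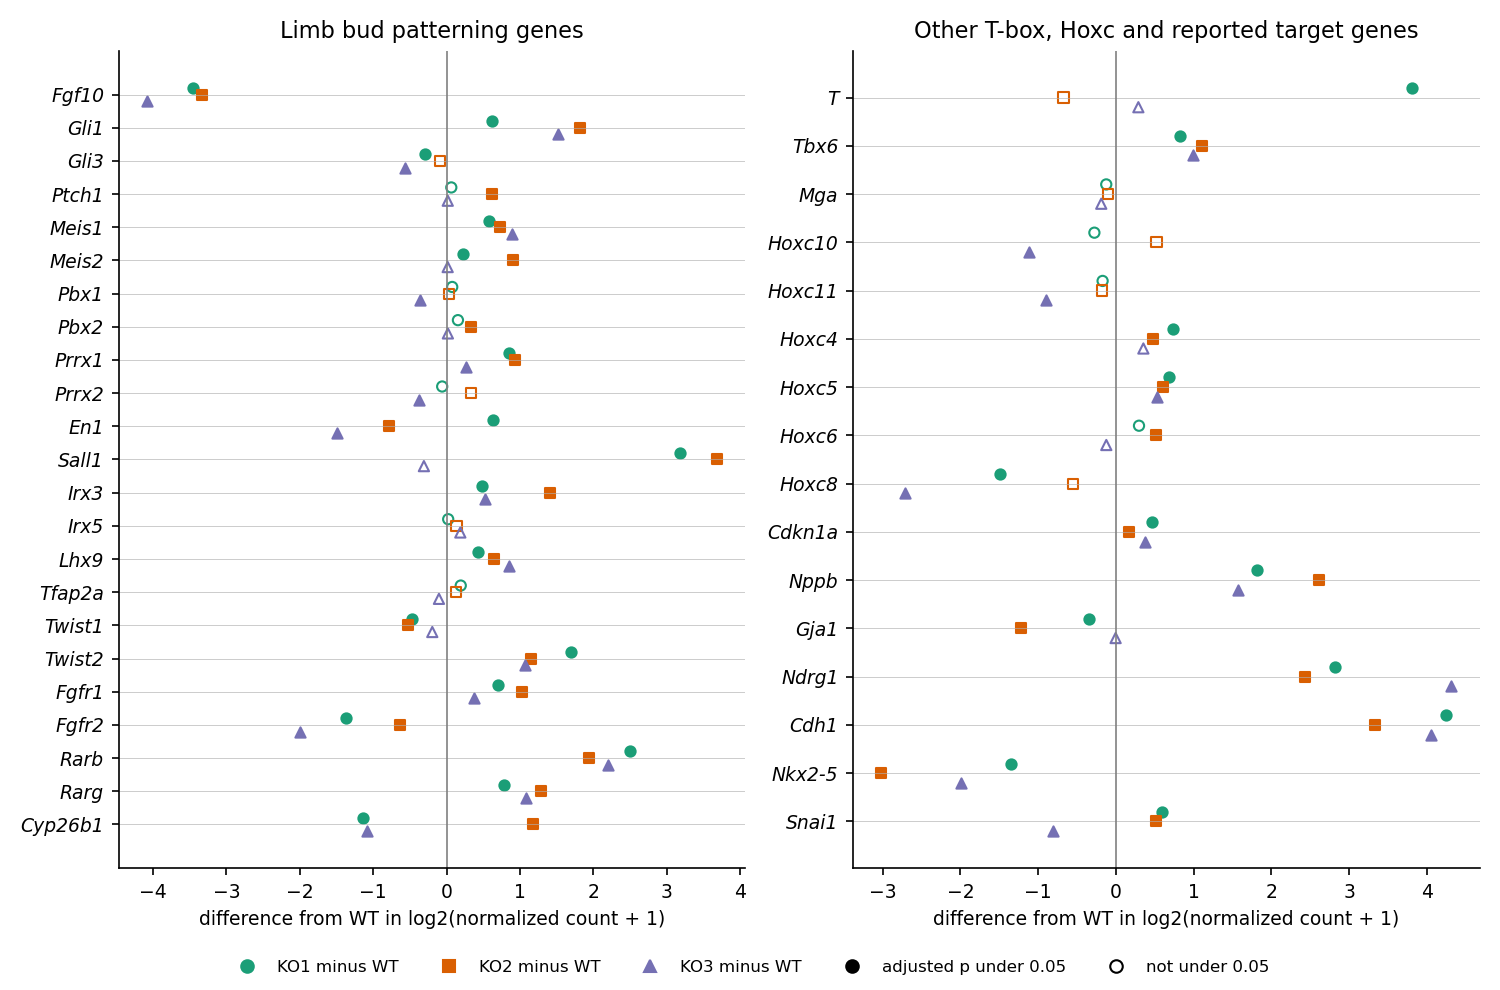
Log2 differences from WT (horizontal axis) of the tested limb bud patterning genes, position genes, other T-box genes and reported targets (rows) in KO1, KO2 and KO3. Filled symbols are called at an adjusted p under 0.05 and open symbols are not. Fgf10 and Fgfr2 lie left of 0 in all clones, while Cyp26b1 lies right of 0 in KO2 and left of it in KO1 and KO3.

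Genes reported as targets of T-box factors or Shox2, mostly in the heart or in human cancer cells, numbered 15, of which 7 passed the filter. In KO1 5 rose and 2 fell, in KO2 5 rose and 2 fell, and in KO3 4 rose and 2 fell, beside the all-gene shares given for the limb bud list. The median log2 differences were 0.59, 0.52 and 0.38 in KO1, KO2 and KO3, beside 0.018, 0.0040 and 0.0032 over all genes. Without WT replicate 1, 3 rose in KO3. Cdkn2a, the senescence gene that Tbx2 and Tbx3 are known to repress, was at 0 in every library, as were Cdkn2b, Kcnj2 and Mycn. With 0 in WT too, these genes say nothing here of repression by Tbx2 or Tbx3. Ndrg1, which TBX2 represses in human breast cancer cells, rose in all clones, with averages of 2257 normalized counts in KO1, 1735 in KO2 and 6360 in KO3, against 320 in WT (log2 differences 2.82, 2.44 and 4.31). Cdh1, which encodes E-cadherin and is repressed by TBX3 in human melanoma cells, also rose in all clones (4.24 in KO1, 3.33 in KO2 and 4.06 in KO3), with 338 to 369 normalized counts in KO1, 171 to 200 in KO2 and 297 to 324 in KO3, against 13.5 to 19.99 in WT. Nppb and Cdkn1a were the other 2 that rose in all clones. Nppb was at a low level, averaging 10.4 normalized counts in KO1, 19.1 in KO2 and 8.53 in KO3, against 3.19 in WT. Its KO3 call was close to the threshold (limma adjusted p = 0.0357). Nkx2-5, a cardiac factor, was the 1 that fell in all clones (-1.35 in KO1, -3.01 in KO2 and -1.99 in KO3). Snai1 rose in KO1 (0.59) and KO2 (0.52) and fell in KO3 (-0.80).
Cardiac genes on the target list were set beside cardiomyocyte markers. Of 8 such markers, 2 (Myl2 and Myl7) were at 0 in every library and 2 passed the filter, and their summed level was 196 to 211 normalized counts in KO1, 70.9 to 109 in KO2 and 47.9 to 62.2 in KO3, against 870 to 1122 in WT. Most of each sum was a single gene, Tnnt2. It had 161 to 172 normalized counts in KO1, 62.5 to 104 in KO2 and 43.7 to 58.1 in KO3, against 869 to 1111 in WT. Myh7, the other marker tested, went the other way in KO1, with 19.7 to 30.0 against 0 to 2.07 in WT. The part of cardiomyocyte markers in the differences of the target list was not tested.

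Genes around the 9 factors were examined within 500 kb of each start. Of 134 annotated neighbours, 78 were at 0 in every library and 35 passed the filter. In KO1 7 rose and 16 fell, in KO2 5 rose and 22 fell, and in KO3 4 rose and 17 fell. Over all genes tested, 26.9% were higher and 25.4% lower in KO1, 29.9% and 30.5% in KO2, and 26.8% and 27.3% in KO3. The neighbours' median log2 differences were -0.29, -0.57 and -0.30 in KO1, KO2 and KO3, beside 0.018, 0.0040 and 0.0032 over all genes. Lower in all clones were 12 and higher in all clones 4. Of the 35, 16 lie near Pitx1, a gene with no reads.
Around Tbx2 and Tbx4, Bcas3 rose in every clone (0.46 in KO1, 0.92 in KO2 and 0.77 in KO3), starting at -479 kb from Tbx2, on its upstream side. Bcas3 is on the plus strand and runs towards Tbx2, so its end lies nearer to Tbx2 than its start does. On the other side, 315 kb beyond the start of Tbx4, Brip1os fell in every clone (-0.55 in KO1, -1.08 in KO2 and -0.66 in KO3). Brip1, which encodes a DNA helicase and starts beside Brip1os on the other strand, running the opposite way, fell in KO2 (-0.72, adjusted p = 7.91e-04) and had -0.30 in KO1 (adjusted p = 0.0961) and -0.27 in KO3 (adjusted p = 0.129). Ints2, an Integrator subunit, fell in all clones (-0.36, -0.57 and -0.46 in KO1, KO2 and KO3), and Med13, a Mediator subunit, fell in KO1 (-0.29, lost without KO1 replicate 3 at adjusted p = 0.0518) and KO2 (-0.32) and had -0.20 in KO3 (adjusted p = 0.0776, passing without KO3 replicate 2 at 0.0417 or WT replicate 2 at 0.0256). Of these 5 genes the furthest from WT was Brip1os in KO2.
Elsewhere, Lxn, at -482 kb from Shox2, rose in all clones (1.60 in KO1, 1.52 in KO2 and 1.66 in KO3), and Ddx41, near Pitx1, fell in all (-1.03 in KO1, -1.33 in KO2 and -0.97 in KO3). Transcripts on the opposite strand also overlap Tbx18 (D030062O11Rik, 1976 bases), Tbx15 (Gm43120, 6588 bases), Shox2 (Rsrc1, 382 bases) and Pitx1 (Gm47071, 9943 bases). D030062O11Rik had 14.8 to 24.6 normalized counts in KO1, 7.67 to 11.2 in KO2 and 7.26 to 24.6 in KO3, against 19.9 to 24.7 in WT, far below Tbx18 itself.

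**Figure D5:**
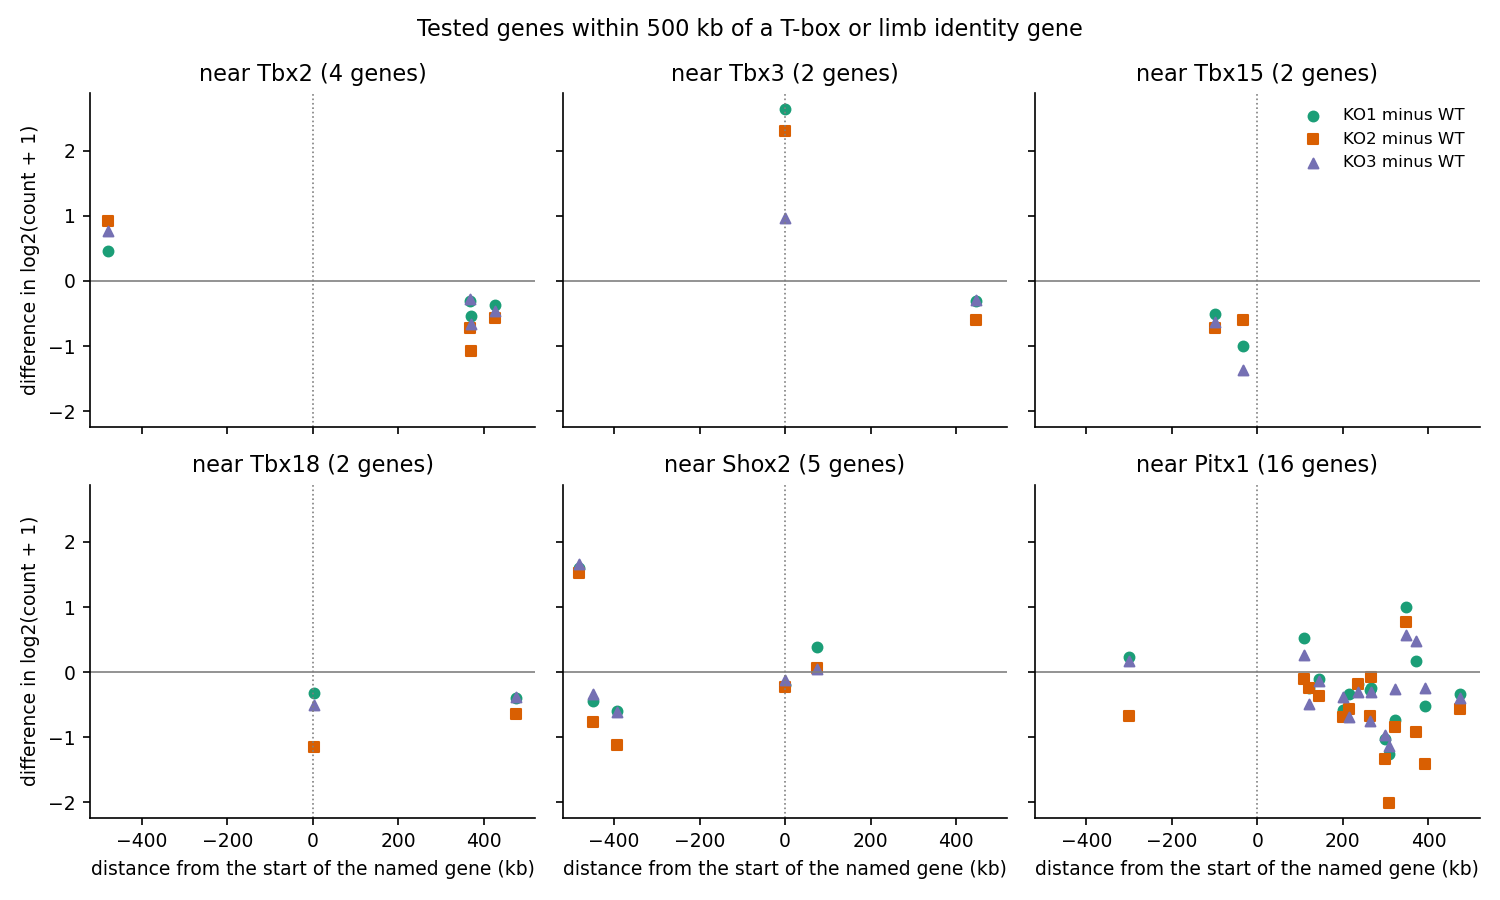
Log2 difference from WT (vertical axis) of tested genes against the distance of their starts from the named gene (horizontal axis, kb, negative upstream), for KO1, KO2 and KO3, in panels for Tbx2, Tbx3, Tbx15, Tbx18, Shox2 and Pitx1. In the Tbx2 panel, Bcas3 lies above 0 and the genes on the other side of Tbx4 lie below it in all clones.

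The genes whose pattern was most like each factor were sought among 10542 protein-coding genes by Pearson correlation of log2(normalized count + 1) over the 12 libraries, which fall into 4 groups and so share few independent levels. The nearest to Tbx4 were Nuak2 (r = 0.996), 2310022B05Rik (0.993) and Myd88 (0.993). Nearest to Tbx2 were Cbx2 (0.972), Echs1 (0.969) and Socs3 (0.965). Nearest to Tbx3 were Prrx1 (0.988), a limb mesenchyme factor on the limb bud list, D630045J12Rik (0.987) and Ifi47 (0.987). Nearest to Tbx18 were Arhgef18 (0.991), Tnfrsf11b (0.990) and Fgf7 (0.987), and nearest to Tbx15 were Rin2 (0.991), Sec22b (0.990) and Pdia3 (0.985). Shox2 had Zfp790 (0.976), Trim21 (0.953) and Ctnnbl1 (0.947). Among the factors themselves, Tbx4 and Tbx18 had r = 0.863, Tbx15 and Tbx18 had 0.813, Tbx4 and Tbx15 had 0.757, and Tbx3 and Shox2 had 0.783. Tbx2 had -0.892 with Tbx15, -0.869 with Tbx18, -0.817 with Tbx4 and 0.305 with Tbx3. The negative value for Tbx2 and Tbx4 followed from how the genes were chosen. The remaining pairs ranged from -0.707 for Tbx3 and Tbx4 to 0.0946 for Tbx2 and Shox2, all given as descriptions over the same libraries.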

How the data were processed

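Total RNA was sequenced from 12 NIH-3T3 libraries, 3 in each of 4 groups. The authors deposited normalized counts per gene (count signal divided by a size factor) and log2 fold change tables. Per the submitters' processing notes, the tools were cutadapt, Salmon 0.14.1 and DESeq2 1.24.0, with GRCm38. Their roles and strand settings are not stated in these sources. The authors' deposited tables also hold p-values, per the file headers, which were not used. Dividing out each library's step returned whole numbers for 99.98% to 99.99% of values (within 0.02). They are called reads here and sum to 32929242 to 42211807 per library. Whether they were counted reads or rounded estimates is not stated in these sources.

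GENCODE M21 names matched 54357 of 54392 identifiers. Genes with at least 10 normalized counts in at least 3 libraries (15073) were fitted by limma 3.58.1 in R 4.3.3 on log2(value + 1), with a trended prior, 4 groups and 8 residual degrees of freedom, and Benjamini-Hochberg adjustment. The steps were tested on simulated data. Up to 4 genes per list or neighbourhood were named by the smallest of their largest adjusted p over the clones. The genes and the lists were chosen with earlier results of these data known, and 1 gene of the target list is not reported here. Sequences came from RefSeq. The alternatives were edgeR 4.0.16 and DESeq2 1.42.0 on the recovered reads, pseudocounts of 0.5 and 5, no filter or at least 50, quantile normalization, only the groups compared, a replicate block and leaving out each library.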

Additional observations from a re-analysis of the deposited data

Results flagged for a closer look

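Differences between clones that passed the limma test over all genes are collected here, each a test of the difference itself between 2 clones, each grown from 1 cell. Tbx2 was higher in KO3 than in KO2 by 0.91 on the log2 scale. Tbx3 was lower in KO3 than in KO1 (-0.99) and than in KO2 (-0.98), and Tbx15 was lower in KO3 than in KO1 (-0.62) and than in KO2 (-0.80). Tbx18 was higher in KO2 than in KO1 (1.38), higher in KO3 than in KO1 (0.25) and lower in KO3 than in KO2 (-1.13).

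Among the limb bud genes and reported targets described above whose difference from WT was called in opposite directions, Cyp26b1 was higher in KO2 than in KO1 (2.31) and lower in KO3 than in KO2 (-2.26). Snai1 was lower in KO3 than in KO1 (-1.39) and than in KO2 (-1.32). En1 was lower in KO2 than in KO1 (-1.41) and lower in KO3 than in KO1 (-2.12). It was also lower in KO3 than in KO2 (-0.71).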

How the results depend on the processing

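Of the 21 alternatives, Tbx18, Tbx3 and Tbx15 kept their calls of KO3 against KO1 and against KO2, and Tbx18 that of KO2 against KO1, in all, and Tbx2 was higher in KO3 than in KO2 in the 20 that held it, since the filter of at least 50 removes it. For KO2 against KO1, the number of the 6 genes called was 2 instead of 1 with quantile normalization, with only the 2 groups, with edgeR and with DESeq2, Tbx15 being the gene added, and 1 to 2 when libraries were left out. Leaving out a library gave 3 to 4 called for KO3 against KO1 and 4 to 5 for KO3 against KO2. KO3 against KO1 gave 4 with quantile normalization (Tbx2 added) and with only the 2 groups (Shox2 added), and KO3 against KO2 gave 5 with edgeR, with DESeq2 and with only the 2 groups (Shox2 added). Shox2 in KO3 minus WT changed sign, at -0.016 with quantile normalization, -0.0041 without WT replicate 2 and -0.050 without WT replicate 3, and was -0.050 to 0.11 over the fits that left out a library; the cause was not tested. Without WT replicate 1, a setting chosen for the lists after seeing the data, 0 position genes rose in KO3 instead of 1. Over all genes, edgeR called 7879 in KO1, 9124 in KO2 and 8119 in KO3 against WT, where limma called 7878, 9105 and 8151. Same-numbered libraries of different groups had deviations correlated at -0.221 to 0.123, beside -0.131 to 0.236 for differently numbered ones. With 3 libraries in a group, these values cannot show whether the numbers stand for more than a label. The replicate block left 1, 3 and 4 of the genes called between clones and 7521, 8862 and 7865 of all genes against WT. Tbx2 rests on 28 to 106 reads a group and Tbx4 on 0 to 2 in the clones, which limits both.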

Other observations

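Markers of other cell types, read as checks of the fibroblast label, moved in several directions. Sox9, a chondrocyte regulator, rose in all clones, by log2 differences of 1.03 in KO1, 1.78 in KO2 and 0.19 in KO3, and was the only gene called higher among the 3 tested of 6 chondrocyte markers in each clone. Its KO3 call was lost without KO3 replicate 3 (adjusted p = 0.0791) or WT replicate 3 (0.0772). Acan, another of the 3, was called lower in KO3 (-1.61, limma adjusted p = 0.00341). It was at a low level, with 1.07 to 4.15 normalized counts in KO3 against 7.06 to 10.4 in WT. The summed chondrocyte markers were 3748 to 3934 normalized counts in KO1, 6366 to 6544 in KO2 and 2061 to 2334 in KO3, against 1782 to 1993 in WT. Most of each sum was Sox9. Of 6 epithelial markers 3 were tested: Cdh1 and Krt14 rose in all clones and Krt8 fell in all (-3.91 in KO1, -3.04 in KO2 and -4.17 in KO3), and the list summed to 362 to 383 normalized counts in KO1, 203 to 225 in KO2 and 326 to 341 in KO3, against 97.6 to 111 in WT. Most of the epithelial sum was Cdh1 in the clones and Krt8 in WT. All 6 myeloid markers were tested, with 2 higher and 2 lower in KO1, 0 and 2 in KO2, and 0 and 3 in KO3. Ptprc and Lyz2, named after their values were seen, were the genes that rose in KO1: Ptprc had 24.6 to 40.1 normalized counts in KO1, 0 to 0.933 in KO2 and 1.04 to 1.75 in KO3, against 0 to 1.04 in WT, and Lyz2 averaged 1822 in KO1, 1280 in KO2 and 1033 in KO3, against 1280 in WT. Lyz2 fell in KO3 (-0.31), a call lost without KO3 replicate 2, WT replicate 2 or WT replicate 3. It was also the largest part of the summed myeloid markers in every group. Csf1r (-2.42 in KO1, -1.91 in KO2 and -3.07 in KO3) and Itgam (-0.83 in KO1, -2.12 in KO2 and -2.69 in KO3) fell in all clones, the KO1 call of Itgam (adjusted p = 0.0437) being lost without KO1 replicate 2, KO1 replicate 3, KO2 replicate 1, KO3 replicate 1, WT replicate 1 or WT replicate 2 (0.0504 to 0.142), and the list summed to 1964 to 2124 in KO1, 1466 to 1504 in KO2 and 1034 to 1255 in KO3, against 1809 to 2035 in WT.

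Of 12 fibroblast markers 10 were tested, with 4 higher and 3 lower in KO1, 4 and 2 in KO2, and 4 and 3 in KO3. Col3a1, a fibrillar collagen, rose in all clones (5.72 in KO1, 2.56 in KO2 and 4.62 in KO3), while Col1a2 (-0.37, -0.31 and -0.41) and Pdgfrb (-0.49, -0.26 and -0.50) fell in KO1, KO2 and KO3. Under quantile normalization Col1a2 was called in no clone and Pdgfrb not in KO2. Of the cardiomyocyte markers, Tnnt2 fell in all clones (-2.58 in KO1, -3.59 in KO2 and -4.35 in KO3), and Myh7 rose in KO1 (3.82, 19.7 to 30.0 normalized counts against 0 to 2.07 in WT).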
